A study of Bos taurus with 6 samples.

Results

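The transcripts described here are 6 factors of the pluripotent cells of the embryo, POU5F1, SOX2, NANOG, SALL4, LIN28A and DPPA3, and LEFTY2, an extracellular inhibitor of NODAL signalling, measured in cattle blastocysts. They are 7 of the 9537 genes measured, taken by gene name, and all 7 were found. The set was put together with the results of the same comparison known: NANOG and LEFTY2 are the members with an adjusted p below 0.05 in the authors' deposited table. Differences between the groups are therefore given for all 7 genes as a description, without a test of them.

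RNA sequencing was done on Bos taurus blastocysts produced in vitro in SOFaaci, a standard culture medium, in 2 groups of 3 libraries. The first group held embryos of low cryosurvival and the second embryos of high cryosurvival, where survival refers to vitrification, rapid freezing into a glass without ice. The sample titles add the code NV to each low and V to each high library, which the labels do not explain, and neither the number of embryos per library nor the time of RNA extraction relative to vitrification is given in the sources used here. The labels name no separate cultures or pools behind the libraries, so p-values measure only the spread between these libraries, which may be technical.

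A blastocyst is made of an outer epithelium, the trophectoderm, and an inner cell mass, which divides into the epiblast, the source of the embryo proper, and the hypoblast. POU5F1, SOX2 and NANOG are the core transcription factors of pluripotency. In mouse cells they bind together at the enhancers of many of the same genes, their own included. In cattle embryos NANOG and SOX2 become limited to the inner cell mass, while POU5F1 persists in the trophectoderm of the blastocyst. NODAL, a ligand of the transforming growth factor beta family, signals through activin receptors and the SMAD proteins, and LEFTY proteins, which its signal induces, inhibit it as a feedback.

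The 6 libraries held between 14651477 and 19467022 reads in the table. Levels are given in CPM, reads scaled to a common library size, and 1 read equalled between 0.0499 and 0.0751 CPM. Low library 2 stood apart: its length index, the median log2(CPM + 1) over long messenger RNAs less the median over short ones, was -2.07, against -0.91 to 0.02 in the other 5 libraries, and the difference of each of the 7 genes and the median of each related list are also given without it. Summed markers of the inner cell mass and epiblast lay between 1059 and 1227 CPM in the low and between 1118 and 1267 CPM in the high libraries (9 of 11 listed markers measured, none at 0 in any library). Of those 9 markers 6 are genes described here, and POU5F1, which the trophectoderm also expresses, makes up most of the sum, so the sum is no independent measure of the share of inner cell mass. Trophectoderm markers summed to between 30310 and 41542 CPM in the low and between 35338 and 39002 CPM in the high libraries (15 of 16 measured, none at 0). That sum is led by the keratin genes KRT8 and KRT18, and marker by marker 3 were higher and 12 lower in the mean log2 level of low cryosurvival, at a median log2(CPM + 1) difference of -0.13. GATA2, DAB2, TFAP2C and TFAP2A had all low below all high libraries, beside 10.6% of all genes. PAG11 had all low above all high libraries, beside 10.4% of all genes. Hypoblast markers summed to between 1836 and 3176 CPM in the low and between 2422 and 3121 CPM in the high libraries (10 of 13 measured, none at 0), a sum led by the fibronectin gene FN1. Of these markers 7 were higher and 3 lower in the mean log2 level of low cryosurvival, at a median difference of 0.33. GATA4, RSPO3 and BMP2 had all low above all high libraries, beside 10.4% of all genes. HNF4A had all low below all high libraries, beside 10.6% of all genes. The markers with groups apart were named after their values were seen. Markers of cumulus and granulosa cells, which surround the oocyte, summed to between 43.0 and 48.1 CPM in the low and between 46.3 and 50.6 CPM in the high libraries (5 of 12 measured, none at 0). Of these FSHR, also named after its values were seen, had all low below all high libraries, beside 10.6% of all genes. Oocyte markers summed to 5.74, 19.4 and 5.92 CPM in low libraries 1, 2 and 3, and to between 6.84 and 7.66 CPM in the high libraries (2 of 10 measured, none at 0). The part of these cell types in the results was not tested.

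NANOG and LEFTY2 were lower in every low cryosurvival library than in any high cryosurvival library. In the other 5 genes the groups overlapped, with POU5F1 and SALL4 near equal in their means, SOX2 and LIN28A higher and DPPA3 lower in the mean of the low libraries. Of all genes measured, 10.6% had all 3 low libraries below all 3 high libraries and 10.4% all 3 low above all 3 high. An adjusted p below 0.05 in the authors' deposited table was found for 1.20% of genes, and for 0.283% with the lower level in low cryosurvival. As the members were chosen on this contrast, nothing is read from their share.

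NANOG, the homeodomain factor that marks the epiblast, had 22.1, 12.2 and 14.3 CPM in low libraries 1, 2 and 3, against 47.3, 31.1 and 37.6 CPM in high libraries 1, 2 and 3. The highest low library lay below the lowest high library. These levels rested on 162 to 845 reads per library, and the exact 95% counting intervals of those neighbouring values were 20.1 to 24.2 CPM in low library 1 and 28.7 to 33.8 CPM in high library 2. Such intervals cover counting error only. The ratio of the means, low over high, was 0.418, and the difference on the log2(CPM + 1) scale, low minus high, was -1.23 (SE 0.25, n = 3 each). Without low library 2, the lowest of the 6, the difference was -1.06 (SE 0.22). The authors' deposited table gave a log2 fold of -1.25, turned here to low over high, with an adjusted p of 0.002. In bulk libraries such as these, fewer cells that express a gene and less RNA of it per cell cannot be told apart.

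LEFTY2 had 1.80, 4.13 and 2.46 CPM in low libraries 1, 2 and 3, against 10.9, 6.14 and 7.49 CPM in high libraries 1, 2 and 3. The groups were again apart, with low library 2 the nearest to the high ones. It had the fewest reads of the 7 genes, 36 to 195 per library, and the counting interval of low library 2, 3.11 to 5.38 CPM, overlapped that of high library 2, 5.07 to 7.35 CPM. The coefficient of variation between libraries was 43.0% in the low and 30.2% in the high group, against 14.7% in the low and 8.19% in the high group from counting alone. The low over high ratio of the means was 0.342, and the log2(CPM + 1) difference was -1.29 (SE 0.28, n = 3 each). It was -1.53 (SE 0.22) without low library 2. In the authors' deposited table the log2 fold, turned to low over high, was -1.57 at an adjusted p of 0.008.

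POU5F1, also called OCT4, had 606, 929 and 700 CPM in low libraries 1, 2 and 3, against 763, 687 and 747 CPM in high libraries 1, 2 and 3. The highest and the lowest library of all 6 both belonged to the low group. Its coefficient of variation was 22.3% in the low and 5.46% in the high group. The log2(CPM + 1) difference was 0.00 (SE 0.18, n = 3 each) with all libraries and -0.17 (SE 0.10) without low library 2, so its sign depends on that library.

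SOX2, the partner that binds DNA beside POU5F1, had 50.0, 47.9 and 55.7 CPM in low libraries 1, 2 and 3, against 53.1, 41.2 and 35.4 CPM in high libraries 1, 2 and 3. High library 1 lay within the range of the low group, and the other high libraries lay below it. The log2(CPM + 1) difference was 0.26 (SE 0.17, n = 3 each), and 0.30 (SE 0.17) without low library 2. It stayed positive with each library left out in turn, between 0.13 and 0.41. The coefficient of variation was 7.81% in the low group, the smallest of the 7 genes there, and 20.8% in the high group. In the RefSeq gene table the gene overlaps a long non-coding RNA gene. Whether reads of that gene were counted for SOX2 is not known.

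**Figure D1:**
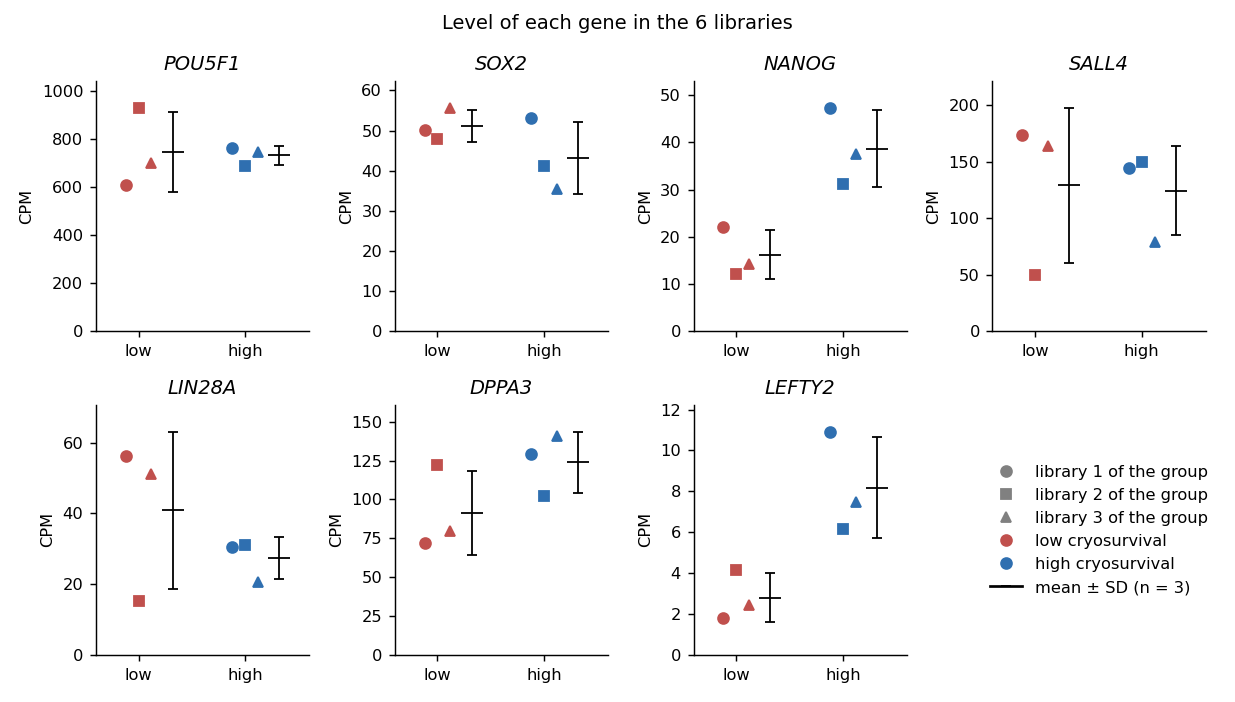
Level of each of the 7 genes in CPM (vertical axis, starting at 0) in low and high cryosurvival libraries; symbols mark the library number within its group, bars the mean ± SD (n = 3 each). NANOG and LEFTY2 do not overlap between the groups, and low library 2 (red square) is the lowest of all libraries for SALL4 at 49.9 CPM and for LIN28A at 15.3 CPM.

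SALL4, a zinc finger factor that works with the NuRD chromatin complex, had 173, 49.9 and 164 CPM in low libraries 1, 2 and 3, against 144, 150 and 78.6 CPM in high libraries 1, 2 and 3. Low libraries 1 and 3 were the highest of the 6 and low library 2 the lowest, so the low group spanned the high one. The highest low library was 3.47 times the lowest, while this ratio was 1.90 in the high group. The log2(CPM + 1) difference was -0.08 (SE 0.51, n = 3 each), and without low library 2 it was 0.49 (SE 0.27). Leaving out high library 1 or 2 also turned it positive, at 0.05 and 0.08.

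LIN28A, an RNA-binding protein that blocks the maturation of let-7 microRNAs, had 56.2, 15.3 and 51.0 CPM in low libraries 1, 2 and 3, against 30.5, 31.0 and 20.7 CPM in high libraries 1, 2 and 3. Low libraries 1 and 3 lay above every high library, and low library 2 lay below them all. The difference in log2(CPM + 1) was 0.38 (SE 0.48, n = 3 each). It was 0.96 (SE 0.18) without low library 2 and 0.06 without low library 1. The value thus rests on which low libraries are included.

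DPPA3, also called STELLA, is a maternal and germ cell factor that protects DNA methylation marks in the early mouse embryo. It had 72.0, 122 and 80.0 CPM in low libraries 1, 2 and 3, against 129, 102 and 141 CPM in high libraries 1, 2 and 3. Low libraries 1 and 3 lay below the high group, and low library 2 lay inside its range. The log2(CPM + 1) difference was -0.46 (SE 0.23, n = 3 each), and -0.69 (SE 0.15) without low library 2. It was negative with each library left out in turn, between -0.69 and -0.31.

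**Figure D2:**
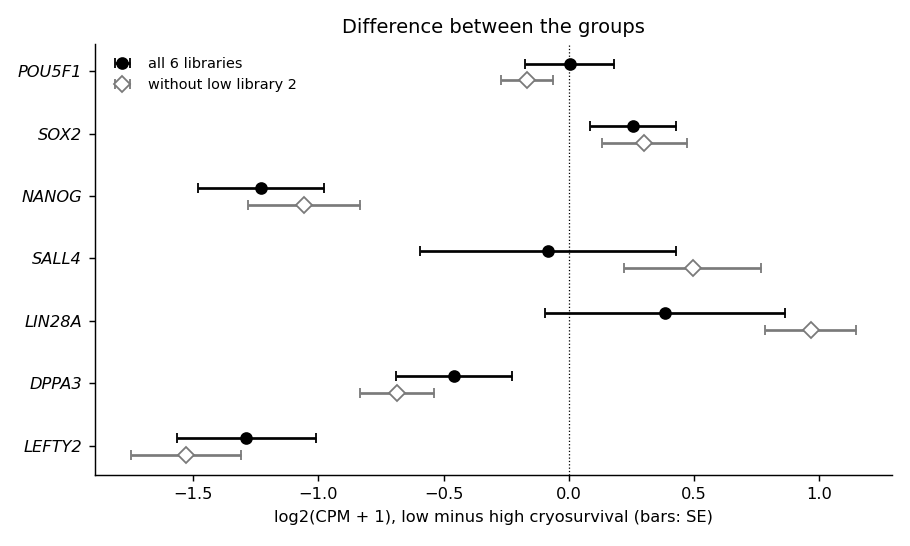
Difference in log2(CPM + 1), low minus high cryosurvival, for each gene; filled circles use all 6 libraries, open diamonds leave out low library 2, bars are SE. NANOG (-1.23) and LEFTY2 (-1.29) lie far to the left with either set, while SALL4 moves to 0.49 and LIN28A to 0.96 without low library 2.

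Within the groups the 7 genes did not vary as a block. SALL4 and LIN28A deviated together: in low libraries 1, 2 and 3 SALL4 lay 0.62, -1.16 and 0.54 from its group mean on the log2(CPM + 1) scale. LIN28A lay 0.65, -1.16 and 0.51 from its own. In high libraries 1, 2 and 3 the deviations were 0.27, 0.32 and -0.59 for SALL4 and 0.17, 0.20 and -0.37 for LIN28A. Both genes were thus lowest in library 2 of the low and library 3 of the high group, which were also the libraries with the lowest length index in their groups, at -2.07 and -0.91. The part of the length index in these deviations was not tested.

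POU5F1, DPPA3 and LEFTY2 were highest in the low group where SALL4 and LIN28A were lowest. In low library 2 POU5F1 lay 0.34, DPPA3 0.45 and LEFTY2 0.48 above its group mean on the log2(CPM + 1) scale. NANOG did not follow LEFTY2 in the low group, with deviations of 0.47, -0.34 and -0.12 in low libraries 1, 2 and 3, against -0.39, 0.48 and -0.09 for LEFTY2. In high libraries 1, 2 and 3, by contrast, NANOG lay 0.30, -0.28 and -0.02 and LEFTY2 0.41, -0.33 and -0.08 from the group mean, in the same order.

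**Figure D3:**
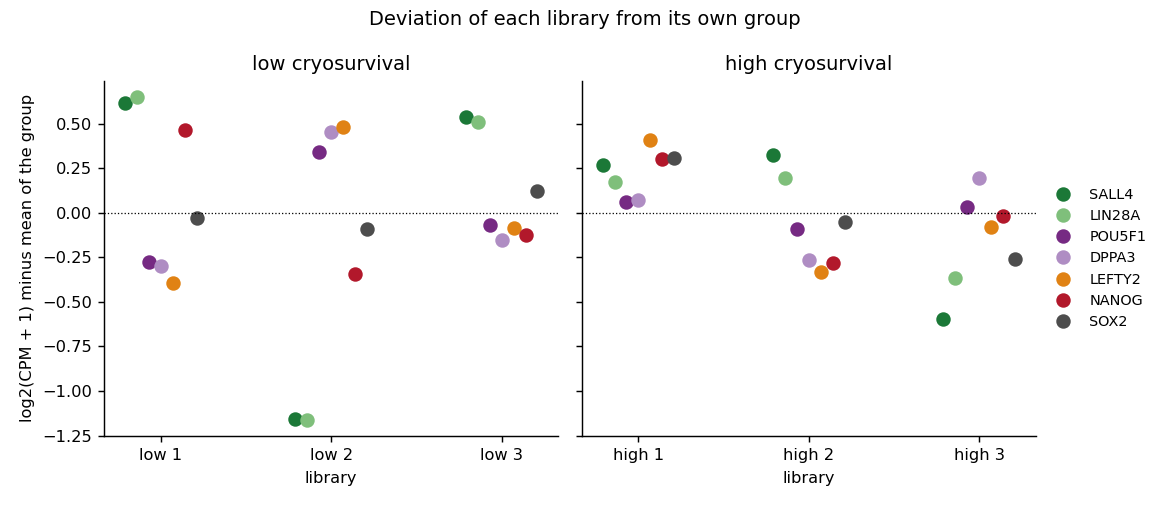
Deviation of each library from the mean of its own group in log2(CPM + 1) (vertical axis) for the 3 low (left) and 3 high cryosurvival libraries (right), with a colour per gene. SALL4 and LIN28A sit together in every library and reach -1.16 in low library 2, where POU5F1, DPPA3 and LEFTY2 lie above 0.

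A distance between genes, the root mean square difference of their mean-centred log2(CPM + 1) profiles over the 6 libraries, orders the 21 pairs of members. It takes in the group difference as well as the spread within groups. POU5F1 and DPPA3 were the nearest pair at 0.26, SALL4 and LIN28A the next at 0.26, and LIN28A and LEFTY2 the farthest at 1.21. NANOG and LEFTY2 were at 0.49, the fifth place of the 21. NANOG and DPPA3, with no protein-coding gene between them in the RefSeq gene table of assembly ARS-UCD2.0, were at 0.61, in place 9.

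Ratios of transcripts within a library do not depend on how the library was scaled. The ratio of NANOG to POU5F1 in CPM was 0.0364, 0.0131 and 0.0205 in low libraries 1, 2 and 3, against 0.0621, 0.0453 and 0.0503 in high libraries 1, 2 and 3. The ratio of NANOG to SOX2 was 0.441, 0.254 and 0.258 in low libraries 1, 2 and 3, against 0.892, 0.757 and 1.06 in high libraries 1, 2 and 3. In both ratios all low libraries lay below all high ones, as for the NANOG level itself. As NANOG was chosen on this contrast and both partners overlapped between the groups, this largely repeats its own level. It is no separate result. The ratio of NANOG to DPPA3, looked at after the values were seen, overlapped between the groups. It was 0.306, 0.0997 and 0.179 in low libraries 1, 2 and 3, against 0.367, 0.305 and 0.267 in high libraries 1, 2 and 3. The mean log2 ratio of NANOG to SOX2, computed on CPM + 1, was -1.64 ± 0.43 in the low and -0.16 ± 0.24 in the high libraries (SD, n = 3 each).

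The ratio of NANOG to SALL4 overlapped between the groups, at 0.127, 0.244 and 0.0877 in low libraries 1, 2 and 3, against 0.329, 0.208 and 0.478 in high libraries 1, 2 and 3. Low library 2, with its low SALL4 level, lay above high library 2. The ratio of LIN28A to SALL4, looked at after the values were seen, was 0.325, 0.307 and 0.312 in low libraries 1, 2 and 3, against 0.212, 0.208 and 0.263 in high libraries 1, 2 and 3. It stayed within a narrow range in the low libraries, although SALL4 varied 3.47-fold and LIN28A 3.67-fold there, and all low libraries lay above all high ones. As the ratio was chosen after its values were seen, no test was made.

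**Figure D4:**
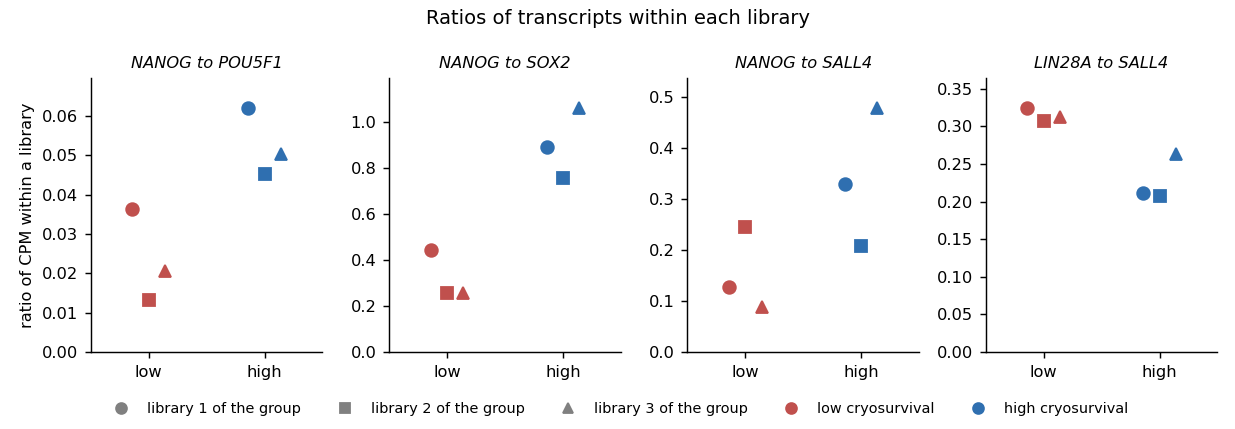
Ratio of the CPM of pairs of genes within each library (vertical axes, starting at 0) in low and high cryosurvival; symbols mark the library number within its group. The ratios of NANOG to POU5F1 and to SOX2 lie lower in all 3 low libraries, the ratio of NANOG to SALL4 overlaps, and the ratio of LIN28A to SALL4 lies at 0.307 to 0.325 in the low and 0.208 to 0.263 in the high libraries.

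By the same distance, 7940 genes with a mean of at least 5 CPM were compared with NANOG and with LEFTY2. The glutamate transporter SLC1A3 was nearest to NANOG, at a distance of 0.15, with 22.8, 14.8 and 19.2 CPM in low libraries 1, 2 and 3, against 45.2, 33.7 and 43.2 CPM in high libraries 1, 2 and 3. The cell adhesion gene FLRT3 was next at 0.17, with 10.1, 5.78 and 6.39 CPM in low libraries 1, 2 and 3, against 19.0, 13.6 and 13.0 CPM in high libraries 1, 2 and 3. Like NANOG, both were lowest in low library 2 and highest in high library 1. The genes nearest to NANOG and those nearest to LEFTY2 were picked for likeness over these same 6 libraries. Their shared order and group difference follow from that search and are no separate result. KCNH6, a potassium channel gene, was in place 3 for NANOG at 0.25 and in place 3 for LEFTY2 at 0.36. LTBP3, which encodes a binding protein of latent transforming growth factor beta, was nearest to LEFTY2 at 0.29, with 3.05, 4.66 and 3.98 CPM in low libraries 1, 2 and 3, against 8.80, 8.02 and 7.38 CPM in high libraries 1, 2 and 3. LTBP3 was below 5 CPM in every low library and met the minimum mean through its high libraries alone, so its lower level in the low group is no separate result. PSTPIP2, an adaptor of the actin cytoskeleton, followed at 0.34. LTBP3, like LEFTY2, was lowest in low library 1 and highest in high library 1. Without low library 2, only FLRT3 was still among the nearest 3 of NANOG, and LTBP3 and KCNH6 were among the nearest 3 of LEFTY2.

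Genes that work with the 7 members were followed in 5 lists. The limma test across all genes called 0 of 9537 genes at an adjusted p of 0.05 (0% of all genes), and so 0 members of each list. At an unadjusted p below 0.05, limma had 598 genes higher and 544 lower in low cryosurvival, 6.27% and 5.70% of all genes. The authors' deposited table also called 0 members of the 5 lists at an adjusted p of 0.05.

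Other genes of the pluripotency network were measured in 21 of 42 cases. In the low libraries 7 had a higher and 14 a lower mean log2 level, with a median log2(CPM + 1) difference of -0.12, beside 0.00 over all genes. Without low library 2 the median was -0.05, with 9 higher and 12 lower, and limma then called ETV5 and SALL1 higher (adjusted p = 0.0440 and 0.0310). In that fit 8.15% of all genes were called higher and 5.48% lower in low cryosurvival. Of the 21 genes, 4 had all low libraries below all high ones, beside 10.6% of all genes: KLF5, OTX2, DPPA4 and TFAP2C. Of these OTX2, DPPA4 and TFAP2C were named after their values were seen. OTX2, a homeodomain factor of the epiblast and later of the anterior embryo, had 53.3, 34.2 and 57.2 CPM in low libraries 1, 2 and 3, against 77.3, 59.3 and 62.9 CPM in high libraries 1, 2 and 3. The Krüppel-like factor KLF5, which acts in both inner cell mass and trophectoderm in the mouse, averaged 477 ± 39.2 CPM in the low and 561 ± 15.6 CPM in the high libraries (SD, n = 3 each). The limma adjusted p was 0.470 for OTX2 and 0.526 for KLF5.

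In the other direction, ETV5, an ETS factor induced by fibroblast growth factor signalling, had 4.12 ± 1.86 CPM in the low and 2.03 ± 0.32 CPM in the high libraries (SD, n = 3 each). Named after its values were seen, it was the 1 gene of this list with all low above all high libraries, beside 10.4% of all genes, and the 1 with an unadjusted limma p below 0.05 (adjusted p = 0.341). NACC1, a factor that binds NANOG in mouse cells, averaged 548 ± 115 CPM in the low and 479 ± 63.3 CPM in the high libraries, with a limma adjusted p of 0.820. The DNA methyltransferase gene DNMT3B had 378, 120 and 326 CPM in low libraries 1, 2 and 3, against 361, 378 and 335 CPM in high libraries 1, 2 and 3. Its low mean is thus drawn down by low library 2, as for SALL4 and LIN28A. That library was the lowest of the 6 for 12 of the 21 genes (57.1%), beside 35.5% of all genes.

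The Nodal and Activin pathway had 19 of 32 listed genes measured, 11 with a higher and 8 with a lower mean log2 level in low cryosurvival, and a median log2(CPM + 1) difference of 0.02. The median was 0.08 without low library 2, with 14 higher and 5 lower, and -0.006 without low library 1. FOXH1, the DNA-binding partner of SMAD2 at NODAL target genes, which in the mouse include the Lefty genes, had 10.3, 9.54 and 8.38 CPM in low libraries 1, 2 and 3, against 7.40, 6.66 and 5.21 CPM in high libraries 1, 2 and 3. All its low libraries lay above all high ones, the direction opposite to that of LEFTY2. The activin receptor gene ACVR2A likewise had 15.9, 11.3 and 15.6 CPM in low libraries 1, 2 and 3, against 10.8, 9.86 and 10.1 CPM in high libraries 1, 2 and 3. These 2 of the 19 genes, named after their values were seen, were the ones with all low above all high libraries, beside 10.4% of all genes, and had the only unadjusted limma p below 0.05 in the list (limma adjusted p = 0.288 and 0.355).

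The intracellular mediators SMAD2 and SMAD4 were at 41.8 ± 2.36 and 72.3 ± 8.95 CPM in the low and at 40.7 ± 1.41 and 73.4 ± 2.58 CPM in the high libraries (SD, n = 3 each). Their limma adjusted p values were 0.956 and 0.974. FURIN, a protease that activates NODAL, had 422, 149 and 321 CPM in low libraries 1, 2 and 3, against 279, 348 and 189 CPM in high libraries 1, 2 and 3, with low library 2 the lowest of the 6. DRAP1, a corepressor that limits NODAL signalling in the mouse, and TGIF1, a corepressor of SMAD2, averaged 127 ± 37.9 and 95.2 ± 11.0 CPM in the low and 122 ± 9.18 and 90.3 ± 1.56 CPM in the high libraries. Without low library 2, limma called ACVR2A and SMAD3 higher and INHBA, a subunit of activin, lower in low cryosurvival (adjusted p = 0.0188, 0.0342 and 0.0289), beside the 8.15% of all genes called higher and 5.48% lower in that fit.

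**Figure D5:**
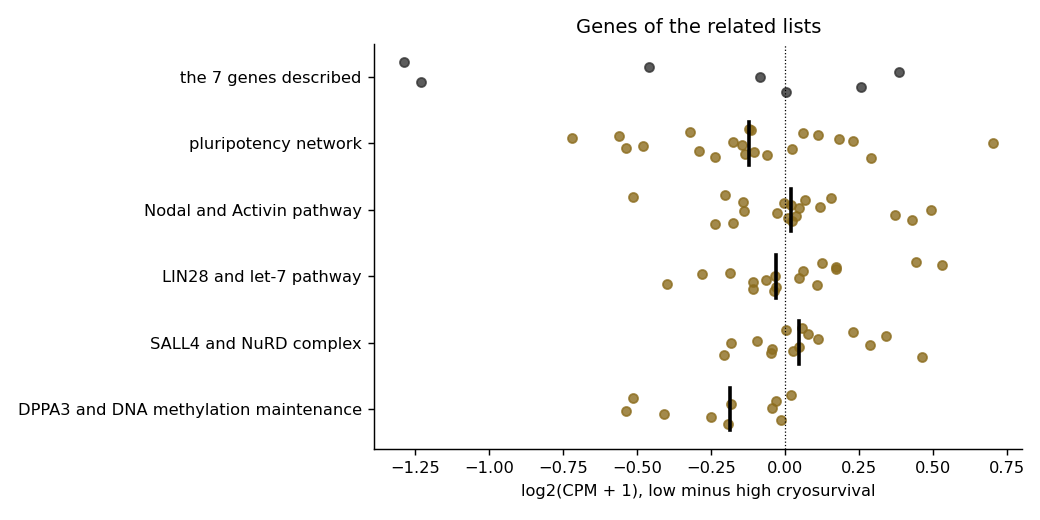
Difference in log2(CPM + 1), low minus high cryosurvival, with a point per gene, for the 7 genes described and for the measured genes of the 5 related lists; black bars are list medians and vertical offsets only separate points. NANOG and LEFTY2 lie at -1.23 and -1.29, while list medians lie between -0.19 and 0.05.

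Of the LIN28 and let-7 pathway, 17 of 26 genes were measured, 8 with a higher and 9 with a lower mean log2 level in low cryosurvival, at a median log2(CPM + 1) difference of -0.03. The median was 0.25 without low library 2, with 13 higher and 4 lower, and limma called CCND1, ZCCHC6 and ARID3B higher (adjusted p = 0.0479, 0.0352 and 0.0210), beside 8.15% of all genes. CCND1, the cyclin D1 gene and a let-7 target, named after its values were seen, had 4.39, 3.98 and 3.72 CPM in low libraries 1, 2 and 3, against 2.46, 2.99 and 2.05 CPM in high libraries 1, 2 and 3. DGCR8, a subunit of the microprocessor that cuts primary microRNAs, had 228, 182 and 231 CPM in low libraries 1, 2 and 3, against 272, 286 and 283 CPM in high libraries 1, 2 and 3. Of the 17 genes, 2 had all low above all high libraries, CCND1 and NRAS, beside 10.4% of all genes. Another 2, DGCR8 and IGF2BP3, had all low below all high libraries, beside 10.6% of all genes. NRAS and IGF2BP3 were named after their values were seen. CCND1 and DGCR8 alone had an unadjusted limma p below 0.05 in the list (limma adjusted p = 0.232 and 0.324). HMGA1 and IGF2BP1, further let-7 targets, averaged 1467 ± 339 and 396 ± 53.2 CPM in the low and 1398 ± 67.5 and 403 ± 29.3 CPM in the high libraries.

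The list of NuRD complex genes and SALL4 paralogs, which also holds CRBN, had 15 of 19 genes measured. Of these 10 were higher and 5 lower in the mean log2 level of low cryosurvival, with a median log2(CPM + 1) difference of 0.05. Without low library 2 the counts were 6 higher and 9 lower and the median -0.07, and limma called CHD4, GATAD2B and SALL1 higher (adjusted p = 0.0340, 0.0179 and 0.0310), beside 8.15% of all genes. CHD4, the ATP-dependent remodeller of the complex, had 375, 334 and 334 CPM in low libraries 1, 2 and 3, against 234, 257 and 266 CPM in high libraries 1, 2 and 3. It was the 1 gene of the 15 with all low above all high libraries, beside 10.4% of all genes, and the 1 with an unadjusted limma p below 0.05 (adjusted p = 0.223). The deacetylase gene HDAC1 averaged 537 ± 39.4 CPM in the low and 619 ± 38.0 CPM in the high libraries (SD, n = 3 each). The histone-binding gene RBBP7 averaged 184 CPM in the low and 198 CPM in the high libraries. Their limma adjusted p values were 0.610 and 0.886.

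Genes around DPPA3 and the upkeep of DNA methylation were measured in 10 of 17 cases, with 1 higher and 9 lower in the mean log2 level of low cryosurvival and a median log2(CPM + 1) difference of -0.19. The median was -0.04 without low library 2, with 3 higher and 7 lower, and limma called 0 of the 10. EHMT2, a histone methyltransferase also named after its values were seen, had 138, 93.1 and 122 CPM in low libraries 1, 2 and 3, against 166, 177 and 156 CPM in high libraries 1, 2 and 3. The de novo methyltransferase DNMT3A had 909, 658 and 798 CPM in low libraries 1, 2 and 3, against 1007, 1156 and 963 CPM in high libraries 1, 2 and 3. These were the 2 of the 10 genes with all low below all high libraries, beside 10.6% of all genes, and with an unadjusted limma p below 0.05, at limma adjusted p values of 0.312 and 0.377. UHRF1, whose action on DNA DPPA3 restrains in mouse cells, had 14.98, 8.26 and 17.4 CPM in low libraries 1, 2 and 3, against 15.9, 14.5 and 14.4 CPM in high libraries 1, 2 and 3. TRIM28, a corepressor that guards imprints in the mouse, averaged 878 ± 56.6 CPM in the low and 899 ± 109 CPM in the high libraries (SD, n = 3 each).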

How the data were processed

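The submitters' processing notes name DESeq 1.12.1 and HTSeq 0.5.4p2 as well as TopHat2 2.0.8 and Bowtie2 2.1.0, among others, with no role for any tool. The sources used here do not give the build, annotation, use of strand or low-level filter. RNA integrity numbers were at least 7.7, per the labels' protocols, and the library kit was NEBNext Ultra II. The authors' deposited table gives, per the file headers, a column per library, a log2 fold, a log2 CPM and p-values, raw and adjusted. The direction of the log2 fold, high over low cryosurvival, was taken from the library values. The library columns are CPM: up to 1000 CPM, 100% of the deposited values in every library were whole multiples of 1 step, within 0.1 read. The recovered reads gave exact Poisson intervals. CPM is not per length, so CPM of different genes is not read as relative amounts of transcript. Across genes it served to pick which list genes to name and to sum the markers of a cell type. It also served to form ratios within a library and to set the minimum mean of the profile search.

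The test was limma (version 3.58.1, R 4.3.3), run on log2(CPM + 1) of all 6 libraries with no covariate and Benjamini-Hochberg adjustment over 9537 genes. limma was tested on simulated data. An exact permutation test of 3 against 3 libraries cannot give a p below 0.1, so none was made. The members and lists were chosen with earlier results of these data known. The rule for named genes took the 7 members, the called and the 3 highest genes of each list, the 3 profiles nearest to NANOG and LEFTY2 and up to 3 markers per cell type. Any other gene, UHRF1, SMAD2, SMAD3, SMAD4 and INHBA included, was named after its values were seen. The length index used 26 long and 71 short genes written from general knowledge. All 7 names matched a RefSeq symbol (ARS-UCD2.0).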

Additional observations from a re-analysis of the deposited data

How the results depend on the processing

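The count of genes called by limma, 0 with all 6 libraries, lay between 0 and 1300 when a library was left out in turn, and only the omission of low library 2 gave calls. It was 7 with a pseudocount of 0.1, 7 among genes with a mean of at least 5 CPM, 5 with median ratio scaling and 1345 with the length index as covariate. It was 0 with limma-voom on the recovered reads, an alternative chosen after the values were seen. With the replicate number as a block it was 0 as well, and the block reduced the genes under an unadjusted p of 0.05 to 797, compared with 1142 without it. Deviations of same-numbered libraries correlated at 0.16, -0.34 and -0.37 across genes, and those of differently numbered libraries at between -0.42 and 0.43. With 3 libraries per group this measure cannot tell whether the numbers pair the libraries. The cause of the changes in the count of genes called was not tested. The edgeR and DESeq2 tests listed beforehand were not run. With each library left out, the log2 difference ranged from -1.46 to -1.06 for NANOG, -1.53 to -1.08 for LEFTY2, -0.17 to 0.14 for POU5F1, -0.39 to 0.49 for SALL4 and 0.06 to 0.96 for LIN28A. LEFTY2 was at -1.62 with limma-voom. List medians ranged from -0.11 to 0.25 for the LIN28 and let-7 pathway and from -0.067 (without low library 2) to 0.099 (without low library 3) for SALL4 and NuRD complex genes. The low minus high log2 ratio of NANOG to POU5F1 ranged from -1.60 to -0.89, and of NANOG to SOX2 from -1.73 to -1.36. Counting limits LEFTY2 most, at 36 reads in low library 1.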

Other observations

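The protein-coding neighbours of NANOG and DPPA3, by their order in the RefSeq gene table (ARS-UCD2.0) and looked at after the values were seen, showed overlapping groups in SLC2A3, FOXJ2 and NECAP1. SLC2A3, a glucose transporter gene and the next protein-coding gene after NANOG, had 1762, 1180 and 1432 CPM in low libraries 1, 2 and 3, against 1281, 1501 and 1269 CPM in high libraries 1, 2 and 3. FOXJ2, a forkhead factor beyond it, had 40.5, 16.3 and 34.9 CPM in low libraries 1, 2 and 3, against 21.3, 21.97 and 14.5 CPM in high libraries 1, 2 and 3, with low library 2 below low libraries 1 and 3 as for SALL4 and LIN28A. NECAP1 had 46.9, 44.3 and 50.3 CPM in low libraries 1, 2 and 3, against 50.6, 44.6 and 50.3 CPM in high libraries 1, 2 and 3.

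Next to LEFTY2, and also looked at after the values were seen, TMEM63A, a membrane protein gene, had 148, 61.4 and 137 CPM in low libraries 1, 2 and 3, against 177, 207 and 186 CPM in high libraries 1, 2 and 3. All its low libraries lay below all high ones. Of all genes, 10.6% had this property.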
